A study of Mus musculus with 4 samples.

Results

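Delta cells are the somatostatin cells of the pancreatic islet. They were chosen here by their own hormone UMIs, as cell barcodes of droplet sequencing in which Sst, the somatostatin gene, gave at least 1% of the UMIs (unique transcript molecules) and more than Gcg or Ppy, while the insulin genes Ins1 and Ins2 together gave under 10%. A barcode also needed at least 1000 UMIs, of which at most 20% came from mitochondrially encoded genes. The rule picked 64 of 5009 such barcodes: 42 of 2912 in the Malat1-null library and 22 of 2097 in the WT library. The Malat1-null islets came from Malat1-/- mice and the WT islets from wild-type mice, both on the C57BL/6 strain, and both are labelled as treated with TCDD, the dioxin best known as a ligand of the aryl hydrocarbon receptor (AhR). The agent was thus shared by both groups, and no effect of it was measured. The labels give neither its dose and duration nor the age and number of the animals, and do not describe the Malat1 allele further. The islets were isolated with collagenase, cultured in RPMI with 10% FBS and dispersed with Accutase. The labels call the cells beta cells, although the suspension was of whole islets. The series has 4 samples, a library for each genotype with TCDD and with DMSO, of which those with DMSO were not analysed here.

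Delta cells release somatostatin, which acts on neighbouring alpha and beta cells through inhibitory receptors and restrains the release of glucagon and insulin. The homeobox factor Hhex is required for the delta lineage in mice. Rbp4, a plasma retinol carrier, and Ghsr, the ghrelin receptor, mark delta cells among the endocrine cells of the mouse islet, and through that receptor ghrelin stimulates somatostatin release.

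With a single library per genotype there is no replicate check, so no test of a genotype effect was possible. Intervals are 95% and cover counting error only, and barcodes of 1 library are not replicates. Levels are given as CPM, the summed UMIs of a class scaled to a common library size with TMM factors over delta, alpha, PP and beta barcodes. They therefore differ from raw shares of UMIs. They are not divided by gene length, since the reads come from the 3-prime ends of transcripts. The delta barcodes held 834240 UMIs in Malat1-null and 501250 in WT. A Malat1-null barcode held between 3655 and 58796 UMIs with a median of 16382, and a WT barcode between 1420 and 52747 with a median of 24249.5. The median mitochondrial share was 1.29% in Malat1-null and 0.839% in WT. The libraries, of 134950186 and 81872519 UMIs, shared 1 barcode of at least 1000 UMIs. No doublet caller was run, so a droplet with several cells and a cell with several hormones cannot be told apart.

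The Sst gene lies on chromosome 16, minus strand, at chr16:23889573-23890958 of GRCm38. Its best-known control element is a cAMP response element, known from the rat gene, through which cAMP and the factor CREB raise Sst transcription. The 30 bases around it are shown because Sst selected the cells described here. They lie at chr16:23890874-23890903 on the minus strand of GRCm38.p6, with the element in capitals, 48 to 41 bases before the RefSeq start. GENCODE M21 places the start of the gene further upstream and annotates the stretch as 5-prime UTR.
Sst: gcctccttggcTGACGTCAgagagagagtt
The motif TGACGTCA reads the same on both strands. It was present in 588 of 32851 RefSeq promoter windows, 1.79%, each running 250 bases before to 50 bases after a start. Of the 20 genes named further on as leading in delta over alpha and beta barcodes, 15 had a window. Sst was the single one that held the motif. The windows of Hhex, Rbp4 and Ghsr did not hold these letters.

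Sst gave 11.4% of the UMIs of the median Malat1-null barcode, between 1.60% and 25.7%. In WT barcodes the median was 10.6%, between 3.04% and 26.5%. The level was 71909.7 CPM in Malat1-null and 93196.5 CPM in WT, a ratio of Malat1-null over WT of 0.77. These values chose the barcodes and are a description. The selection limit fell in a gap: after the lowest member came 1.92% in Malat1-null and 5.72% in WT, and the highest barcode just outside, low in insulin and with Sst above Gcg and Ppy, held 0.413% in Malat1-null and 0.128% in WT. The limit against other hormones was tighter, since the closest member had 1.02 times as much Sst as Ppy in Malat1-null and 1.01 times in WT. In all, 113 Malat1-null and 33 WT barcodes reached 1% Sst. Of these, 56 Malat1-null and 5 WT barcodes held insulin at 10% or more, at least 17.0% and 35.2%, and a further 15 Malat1-null and 6 WT barcodes had as much Gcg or Ppy as Sst or more.

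The delta barcodes made up 1.44% of the Malat1-null barcodes (interval 1.04% to 1.94%) and 1.05% of the WT barcodes (0.659% to 1.58%). Among delta, alpha, PP and beta barcodes together the share was 1.92% of 2182 in Malat1-null and 2.09% of 1051 in WT. Which of the genotypes had the larger share thus depended on the denominator, and in both cases the intervals overlapped. The alpha, PP and beta barcodes were chosen in the same way on Gcg, Ppy and insulin and numbered 83, 41 and 2016 in Malat1-null and 39, 36 and 954 in WT.

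The other delta markers, which the rule did not use, were present at similar levels in both libraries. Rbp4 had UMIs in all 42 Malat1-null and all 22 WT barcodes, at 5407 and 5036 CPM, a ratio of 1.07 (1.03 to 1.12). Hhex had UMIs in 36 of 42 Malat1-null and 19 of 22 WT barcodes, at 151 and 174 CPM. Hhex had a UMI in 1.14% of the deeper beta barcodes in Malat1-null and 0.524% in WT, and Rbp4 in 8.98% and 3.88%. Hhex was not particular to delta barcodes: it had a UMI in 17.1% and 8.33% of PP barcodes and in 14.9% of 463 and 16.4% of 488 lymphocyte barcodes, at a median depth of 4415 and 5819 UMIs. Rbp4 too had a UMI in most alpha barcodes, 82 of 83 in Malat1-null and 37 of 39 in WT. The same held for PP barcodes, 37 of 41 and 33 of 36, so its presence alone did not set delta barcodes apart. Alpha barcodes held less of Hhex and Rbp4, 12.5 CPM of Hhex in Malat1-null and 15.6 CPM in WT, and 906 and 799.6 CPM of Rbp4. PP barcodes held 924 and 920 CPM of Rbp4. Ghsr was sparse, with 19 UMIs in 15 of 42 Malat1-null barcodes and 12 UMIs in 7 of 22 WT barcodes. Against this, Ghsr had a UMI in 0 of 83 Malat1-null and 1 of 39 WT alpha barcodes, and in 2 of 41 and 1 of 36 PP barcodes. It had a UMI in 0.595% and 0.314% of beta barcodes, whose median depth was 45810 and 60691 UMIs, and in 0 of 463 and 0 of 488 lymphocyte barcodes. All the fixed delta markers were therefore found, and the label of delta cells was kept.

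Delta barcodes carried a peptide-rich transcriptome in which other hormones stood next to somatostatin. The 4 genes with most UMIs in Malat1-null were Sst (9.99% of all UMIs), Iapp (5.76%), Pyy (5.75%) and Ppy (2.44%). In WT they were Sst (12.3%), Pyy (7.22%), Iapp (5.91%) and Malat1 (3.42%), with Ppy next at 2.81%. Iapp encodes amylin, a peptide secreted with insulin, Pyy encodes peptide YY, and Ppy encodes pancreatic polypeptide, the product of PP cells. Iapp lay at 41432 CPM in Malat1-null and 44950.2 CPM in WT delta barcodes. This was below the 76436 and 85107 CPM of beta barcodes and above the 7141 and 3479 CPM of alpha barcodes. Pyy lay at 41411 and 54895 CPM in delta barcodes, against 114882 and 113142 CPM in PP barcodes. Alpha barcodes held 19745 and 26616 CPM of Pyy and beta barcodes 509 and 147 CPM. Both genes had UMIs in every delta barcode of both libraries. In the empty droplets, those with 10 to 100 UMIs, Iapp made up 3.90% of UMIs in Malat1-null and 1.99% in WT, and Pyy 0.101% and 0.106%. Iapp made up 1.01% to 8.74% of the UMIs of a Malat1-null barcode and 0.347% to 11.4% of a WT barcode.

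Ppy reached 1% of UMIs in 28 of 42 Malat1-null barcodes, 66.7% (50.5% to 80.4%), and in 15 of 22 WT barcodes, 68.2% (45.1% to 86.1%). Its share ran up to 9.53% in Malat1-null, with a median of 1.94%, and up to 8.83% in WT, with a median of 2.86%. The upper end was held down by the rule, which required more Sst than Ppy. Ppy made up 0.170% of the UMIs of empty droplets in Malat1-null and 0.178% in WT. Gcg reached 1% in 2 of 42 Malat1-null barcodes and in 0 of 22 WT barcodes, where the exact interval of the share reaches 15.4%. The insulin genes together reached 1% in 8 of 42 Malat1-null and 0 of 22 WT barcodes, and never more than 3.17% in Malat1-null and 0.703% in WT. Ghrl, the ghrelin gene of epsilon cells, had no UMI in either library.

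**Figure D1:**
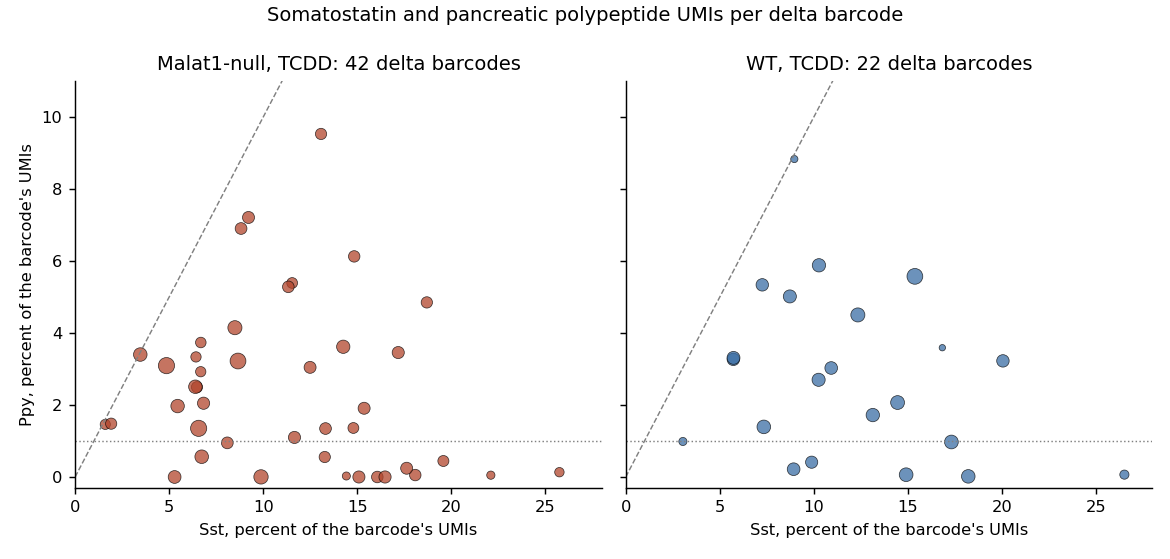
Each point is a delta barcode, Malat1-null on the left and WT on the right, with the Sst share of its UMIs on the x axis and the Ppy share on the y axis, both in percent; larger points have more UMIs. The dashed line marks equal Sst and Ppy and the dotted line 1% Ppy, above which lie 28 of 42 Malat1-null and 15 of 22 WT barcodes.

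Marker genes of non-endocrine cells were few in the delta barcodes. None of the 7 T or NK, 4 erythroid and 4 granulocyte markers had a UMI in either library. The 6 mesenchymal markers gave 2 UMIs in Malat1-null and 0 in WT, the 6 endothelial markers 9 and 14, the 5 B cell markers 4 and 1, and the 4 Schwann cell markers 26 and 10. The 6 macrophage markers gave 86 and 42 UMIs, all from 2 genes of the list, with Adgre1, Csf1r, C1qb and Lyz2 at 0 in both libraries. Col1a1, Pdgfrb, Cdh5, Kdr and Sox10 were at 0 in both libraries. Acinar markers, which encode digestive enzymes of the exocrine pancreas, gave 0.0197% of UMIs in Malat1-null and 0.0551% in WT. The 6 ductal markers gave 0.224% and 0.239%, mostly through Epcam, an adhesion molecule that islet cells also express. Among the 8 beta markers 5 had a UMI in Malat1-null and 6 in WT, with none from Ucn3, the urocortin 3 gene, in either library. The 4 PP markers gave 2.45% and 2.81% of UMIs, nearly all from Ppy, while Vsig1 was at 0 in both.

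The genes that set delta barcodes apart from alpha and beta barcodes included secreted factors, surface proteins and proteins known from neurons. Among 1869 genes with at least 50 CPM in the delta barcodes of both libraries, 46 were at least 2-fold higher than in alpha and in beta barcodes of both libraries, 2.46% of those compared. Sst, Gcg, Ppy and insulin chose these classes, so all such ratios are a description. The 20 genes with the largest value of the smallest of the 4 ratios were Bmp3, Sst, Ptprz1, Cd24a, Hhex, Mef2c, Dpp6, Gdf15, Gap43, Syt1, Rbp4, Nebl, Pcdh15, Arg1, Rnaset2b, Stxbp5l, Ly6h, Tspan8, Ncam2 and Ambp.

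Bmp3, a secreted member of the bone morphogenetic protein family on chromosome 5 (chr5:98854415-98884396, GRCm38), stood first, at 25.5 times or more the alpha and beta level. It had 57.8 CPM in Malat1-null and 53.1 CPM in WT delta barcodes. Alpha barcodes had 2.27 and 1.56 CPM and beta barcodes 0.406 and 0.613 CPM. Bmp3 UMIs were found in 28 of 42 Malat1-null and 14 of 22 WT delta barcodes, and the richest barcode held 10.4% and 17.1% of them. Gdf15, a stress-induced secreted factor of the same superfamily, had 94.0 and 103 CPM in delta barcodes, 10.2 and 14.1 CPM in alpha barcodes and 9.03 and 8.06 CPM in beta barcodes. A single barcode held 75% of the WT delta UMIs of Gdf15, so its WT level rests largely on that barcode, while the richest Malat1-null barcode held 13.8%.

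Ptprz1, a receptor-type tyrosine phosphatase best known from glia, had 105 CPM in Malat1-null and 140 CPM in WT delta barcodes, with UMIs in 35 of 42 and 20 of 22. Its alpha level was 3.41 and 10.2 CPM and its beta level 0.234 and 0.0942 CPM. Gap43, a growth-cone protein of neurons, had 129 and 68.3 CPM, Syt1, the calcium sensor of synaptic vesicles, 69.9 and 68.3 CPM, and Ncam2, a neural adhesion molecule, 83.7 and 97.1 CPM. Beta barcodes held at most 0.813 CPM of each of these 3 genes in either library. Dpp6, an auxiliary subunit of voltage-gated potassium channels, had 54.4 and 77.4 CPM in delta barcodes, with alpha barcodes at 6.25 and 8.61 CPM. Stxbp5l, a syntaxin-binding regulator of exocytosis, had 146 and 115 CPM, against 29.0 and 14.9 CPM in alpha barcodes. Pcdh15, a protocadherin known from the inner ear, had 51.8 and 54.6 CPM.

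Cd24a, a small surface glycoprotein, had 499.6 CPM in Malat1-null and 481 CPM in WT delta barcodes, at least 12.5 times the level of alpha and beta barcodes. Mef2c, a MADS-box transcription factor, had 63.0 and 77.4 CPM in delta barcodes, against 6.81 and 5.48 CPM in alpha barcodes. Arg1, the urea-cycle arginase, had 377 and 400.4 CPM in delta barcodes, against 66.4 and 44.6 CPM in alpha and 4.16 and 2.05 CPM in beta barcodes. Ly6h, a small anchored surface protein, had 202 and 188 CPM in delta barcodes and at most 1.02 CPM in beta barcodes. Tspan8, a tetraspanin, was the exception among the leading genes, since PP barcodes held more of it: 274 and 347 CPM in delta barcodes, against 642 and 699 CPM in PP barcodes. For the other 19 genes the delta level was the highest of the 4 classes in both libraries.

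**Figure D2:**
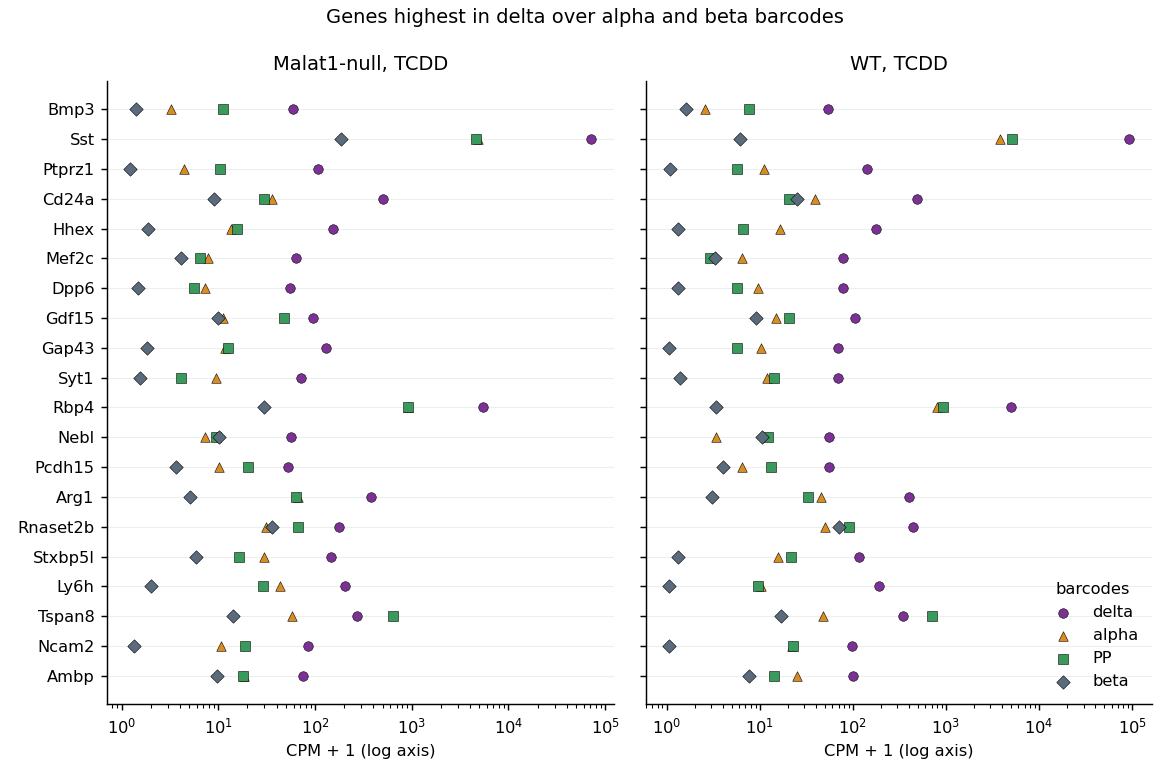
Level of the 20 leading delta genes in delta, alpha, PP and beta barcodes, Malat1-null on the left and WT on the right, as CPM + 1 on a log axis; each symbol is the sum over all barcodes of a class. Delta lies rightmost for 19 of 20 genes in both libraries, and Tspan8 is higher in PP barcodes.

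Transcription factors of the endocrine lineage were detected broadly. Of 28 fixed genes, 26 had a UMI in Malat1-null and 23 in WT delta barcodes. Isl1, a LIM homeobox factor of all islet endocrine cells, had 383 CPM in Malat1-null and 367 CPM in WT, against 190 and 155 CPM in alpha and 125 and 131 CPM in beta barcodes. Meis2, a TALE homeobox factor, had 362 and 338 CPM, and Pax6 had 202 and 168 CPM. Pdx1, a homeobox factor of beta and delta cells, had 38.0 and 47.0 CPM in delta barcodes, against 73.9 and 56.3 CPM in beta barcodes. Alpha barcodes held 5.68 CPM of Pdx1 in Malat1-null and 0 UMIs in WT. Neurog3, the factor that starts the endocrine programme in the embryo, had 46 UMIs in 23 of 42 Malat1-null barcodes and 18 UMIs in 9 of 22 WT barcodes, at 39.7 and 27.3 CPM. Its level was 2.84 and 0.782 CPM in alpha barcodes and 0.422 and 1.18 CPM in beta barcodes.

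Receptors through which other signals reach delta cells were sparsely counted. Of 37 fixed receptor genes, 14 had no UMI in either library and 4 met the minimum for the genotype comparison. Ffar4, a receptor for long-chain fatty acids known to restrain somatostatin release, had 61.3 CPM in Malat1-null and 33.4 CPM in WT, against 12.5 and 13.3 CPM in alpha and 0.406 and 0.212 CPM in beta barcodes. PP barcodes had 17.9 and 32.0 CPM of Ffar4, so in WT they were near the delta level. The AMPA-type glutamate receptor subunit Gria2 had 48.3 and 53.1 CPM. Glp1r, the GLP-1 receptor, had 42.3 and 37.9 CPM in delta barcodes, against 446 and 382 CPM in beta barcodes. The somatostatin receptor Sstr3 had 29 UMIs in Malat1-null and 12 in WT, and Sstr4 and Sstr5 had no UMI. Crhr2, the receptor for urocortin 3, had 4 UMIs in Malat1-null and 1 in WT. The leptin receptor Lepr had 1 and 0, and Drd2, Chrm3 and Npy1r had 0 in both. The exact interval of a count of 0 reaches 3.18 CPM in Malat1-null and 5.60 CPM in WT for Drd2 and the other genes at 0.

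The hormones led the variation between barcodes, although Sst, Ppy and insulin were bounded by the rule that chose them. After each barcode of at least 5000 UMIs was thinned to 5000 UMIs (40 Malat1-null and 19 WT barcodes, with 2 and 3 left out), the genes with the largest variance over mean in both libraries were Sst, Ppy, Pyy, Iapp, Spp1, Rbp4, Ins2, Mt1, Resp18 and mt-Atp6. Thinned Sst ran between 81 and 1281 UMIs in Malat1-null and between 256 and 1337 in WT, Ppy between 0 and 470 and between 0 and 305. Spp1, the secreted matrix protein osteopontin, owed its place to single barcodes, which held 76.7% of its UMIs in Malat1-null and 65.3% in WT. Sst and Ppy had Pearson correlations of -0.16 across the 40 Malat1-null barcodes and -0.39 across the 19 WT barcodes. Sst and Pyy had -0.11 and 0.50, so the direction differed. Fos and Jun, partners in the AP-1 factor, had 0.43 and 0.47. Barcodes of a correlation share a library, and at a fixed number of UMIs more of 1 hormone leaves fewer UMIs for the others. The rule also required more Sst than Ppy, which bears on their correlation. Gcg, a rule gene as well, had the largest variance over mean in Malat1-null, 152, and 2 in WT. The thinned barcodes held a median of 1988.5 genes in Malat1-null and 1915 in WT, against 1930.5 and 1825 in alpha, 1464 and 1501 in PP and 1225 and 1355.5 in beta barcodes.

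Malat1, the targeted gene (chr19:5795690-5802672 of GRCm38, minus strand), an abundant nuclear long non-coding RNA, had 1 UMI in the Malat1-null and 17140 UMIs in the WT delta barcodes, 0.863 against 25999 CPM. In WT it made up 3.57% of the UMIs of the median barcode and up to 24.0%. It was absent in 3 of the 22 WT barcodes. These held 1420, 2287 and 6100 UMIs, of which at most 0.141% were mitochondrial. Whether they were whole cells was not tested. Without them 17 genes were higher and 18 lower by the rule that follows.

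The delta barcodes of both genotypes were compared gene by gene. Genes entered the comparison with 50 CPM or more in either library and 50 UMIs or more over both. A gene could thus enter only through the library in which it was higher. Among those called, Id1 did so, with 6.07 CPM in WT, and Sftpd, with 13.8 CPM in Malat1-null. A gene was called if its ratio of Malat1-null over WT was beyond 2-fold and the interval of the ratio beyond 1.5-fold. Of 2364 genes tested, 16 were called higher in Malat1-null, 0.677%, and 18 lower, 0.761%. Within 1.5-fold lay 2041 genes, and the median log2 ratio was 0.06. Scaled to total UMIs instead, 23 genes were higher and 16 lower, with a median log2 ratio of 0.13. In the 13 Malat1-null and 7 WT barcodes with Gcg and Ppy both under 1%, 7 genes were higher and 8 lower of 876 tested. A fixed fold rule of this kind compares 2 libraries and not 2 genotypes.

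The genes called higher in Malat1-null were led by hormone-cell genes. Gcg, the glucagon gene, had 3153 UMIs in Malat1-null and 18 in WT, 2720.5 against 27.3 CPM. The rule for the barcodes used Gcg, so its ratio is a description, and 73.6% of its Malat1-null UMIs came from 1 barcode. Without the 2 Malat1-null barcodes in which Gcg reached 1%, its log2 ratio was 2.08, against 6.60 with them. Ttr, the thyroid hormone carrier transthyretin, abundant in alpha cells, had 395 and 25.8 CPM, a ratio of 15.3 (9.47 to 26.5). Of its UMIs 57.9% came from 1 barcode, and without the Gcg barcodes its log2 ratio was 1.48, against 3.90 with them. Alpha markers together gave 0.440% of the UMIs of Malat1-null delta barcodes and 0.00798% in WT, while the median barcode held 0.00858% and 0.00495%.

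Ins2 and Ins1, the mouse insulin genes, were the other hormone genes on the list, with 2854 and 984 CPM in Malat1-null and 842 and 312 CPM in WT. The ratios were 3.39 (3.10 to 3.72) and 3.15 (2.71 to 3.67), and every barcode of both libraries held UMIs of both genes. Insulin made up 49.2% of the UMIs of empty droplets in the Malat1-null library and 20.8% in WT, so its level outside cells differed in the same direction. If all insulin UMIs of the delta barcodes were ambient, ambient RNA would be 1.08% of their UMIs in Malat1-null and 0.729% in WT. In alpha barcodes the insulin ratios were 4.38 for Ins2 and 5.10 for Ins1, and in PP barcodes 1.63 and 1.39. In beta barcodes, which insulin selected, they were 1.27 and 1.26. Whether ambient RNA gave the difference in delta barcodes was not tested.

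Id1 and Id3, inhibitors of basic helix-loop-helix factors and targets of BMP signalling, were both higher in Malat1-null. Id3 had 113 CPM in Malat1-null and 19.7 CPM in WT, a ratio of 5.73 (3.24 to 11.1), with UMIs in 22 of 42 and 4 of 22 barcodes. Id1 had 58.7 and 6.07 CPM, a ratio of 9.67 (3.61 to 36.5), with UMIs in 14 and 2 barcodes. In the barcodes with Gcg and Ppy under 1% the log2 ratio of Id1 was 0.63, against 3.11 in all, and that of Id3 was 3.44, against 2.47, and neither passed the rule. In PP barcodes Id1 and Id3 were also higher in Malat1-null, with ratios of 10.7 and 2.37. In beta barcodes Id3 had a ratio of 2.39 and Id1 of 0.857. Gadd45b, a stress-response gene, had 76.8 and 13.7 CPM, and 1 barcode held 48.3% of its Malat1-null UMIs. Without the barcode richest in each gene, Id1 and Gadd45b no longer passed, at log2 ratios of 4.45 and 2.02 on fewer UMIs, while Id3 did.

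The other genes called higher were of mixed function. Tmsb15b2, a beta-thymosin whose reads may be shared with a close copy, had 60.4 CPM in Malat1-null and 7.58 CPM in WT. Its ratio was 1.73 in alpha, 4.40 in PP and 4.12 in beta barcodes. Alpha barcodes held far more of it, 1537 CPM in Malat1-null and 890 CPM in WT. A single barcode held 32.9% of its Malat1-null delta UMIs. The call was lost in 5 of 16 alternative settings, among them the one without the Gcg barcodes. Dbp, a clock-controlled transcription factor, had 55.2 and 13.7 CPM, a ratio of 4.04 (2.00 to 9.25), while in beta barcodes the ratio was 0.69. Fxyd3, a regulator of the sodium pump, had 87.1 and 22.8 CPM. Zdhhc2, a palmitoyl transferase, had 164 and 60.7 CPM, with UMIs in 37 of 42 and 15 of 22 barcodes, and its ratios in alpha, PP and beta barcodes lay between 1.07 and 1.21. Hist3h2ba, a histone H2B gene, had 88.0 and 21.2 CPM. Calb1, which encodes the calcium buffer calbindin, had 69.0 and 25.8 CPM. Rnase4, a secreted ribonuclease, had 124 and 50.1 CPM. Ankrd12 and 2410006H16Rik completed the list, with ratios of 2.31 and 2.39.

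Apart from Malat1, the gene furthest down in Malat1-null was Ctrb1, the chymotrypsinogen gene of acinar cells, at 6.04 CPM in Malat1-null and 132 CPM in WT. Its ratio was 0.0458 (0.0179 to 0.0984) in delta, 0.0704 in alpha, 0.0437 in PP and 0.772 in beta barcodes. Acinar markers made up 0.453% of the UMIs of empty droplets in the Malat1-null library and 9.71% in the WT library. Sftpd, a secreted collectin, had 13.8 and 54.6 CPM, a ratio of 0.25 (0.13 to 0.47), with UMIs in 12 barcodes of each library.

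Adam22, a synaptic adhesion protein without protease activity, was lower in Malat1-null, with 38.8 CPM in Malat1-null and 118 CPM in WT, a ratio of 0.33 (0.22 to 0.48). Rgs17 and Rgs9, which end signalling by inhibitory G proteins, had 59.5 and 57.8 CPM in Malat1-null, against 155 and 138 CPM in WT. Nav1, a neuron navigator protein, had 19.8 and 69.8 CPM, and Nab1, a corepressor of EGR factors, 23.3 and 59.2 CPM. In alpha barcodes Adam22 had a ratio of 0.85 (0.36 to 2.00), Rgs17 of 1.21 (0.92 to 1.60) and Nav1 of 1.15 (0.87 to 1.52). The ratios of these genes were 0.69, 0.72 and 0.85 in PP barcodes and 0.70, 0.69 and 0.92 in beta barcodes. Rgs9 had ratios of 0.64 in alpha, 0.83 in PP and 0.72 in beta barcodes, and Nab1 of 1.09, 0.50 and 0.81. Whether these differences from the delta ratio exceed the spread between animals could not be tested.

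Rnaset2b and Rnaset2a, near-identical copies of a lysosomal ribonuclease whose reads cannot be told apart with certainty, had 178 and 264 CPM in Malat1-null, against 444 and 625 CPM in WT. Both were also among the genes at least 2-fold higher in delta than in alpha and beta barcodes. In beta barcodes their ratios of Malat1-null over WT were 0.50 and 0.46. Clu, the secreted chaperone clusterin, had 605 CPM in Malat1-null and 1251 CPM in WT, with UMIs in every delta barcode of both libraries. Its ratio was 0.48 (0.44 to 0.54), and it was 0.56 in alpha, 0.58 in PP and 0.77 in beta barcodes. The ratio of Clu lay near the 2-fold limit, and the call was lost in 6 of 16 alternative settings. The lysosomal protease Ctsh had 39.7 and 95.6 CPM, the fatty-acid binding protein Fabp5 44.0 and 108 CPM, and the secreted bridging protein Mfge8 19.8 and 56.1 CPM. The uncharacterised 4930539E08Rik had 21.6 and 74.3 CPM.

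**Figure D3:**
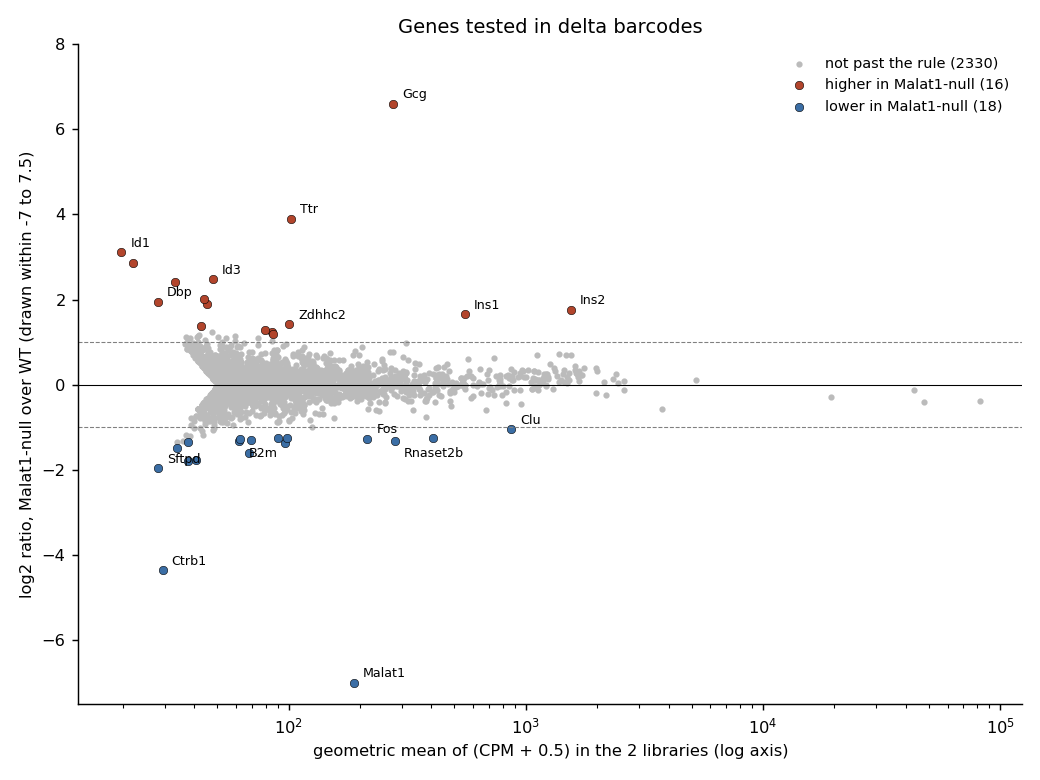
Each point is 1 of the 2364 genes tested in delta barcodes, with the geometric mean of its CPM in the 2 libraries (log axis) on the x axis and the log2 ratio of Malat1-null over WT on the y axis; the dashed lines mark 2-fold and Malat1 is drawn at the lower edge. The 16 genes called higher and the 18 called lower lie beyond the dashed lines because the rule required it.

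**Figure D4:**
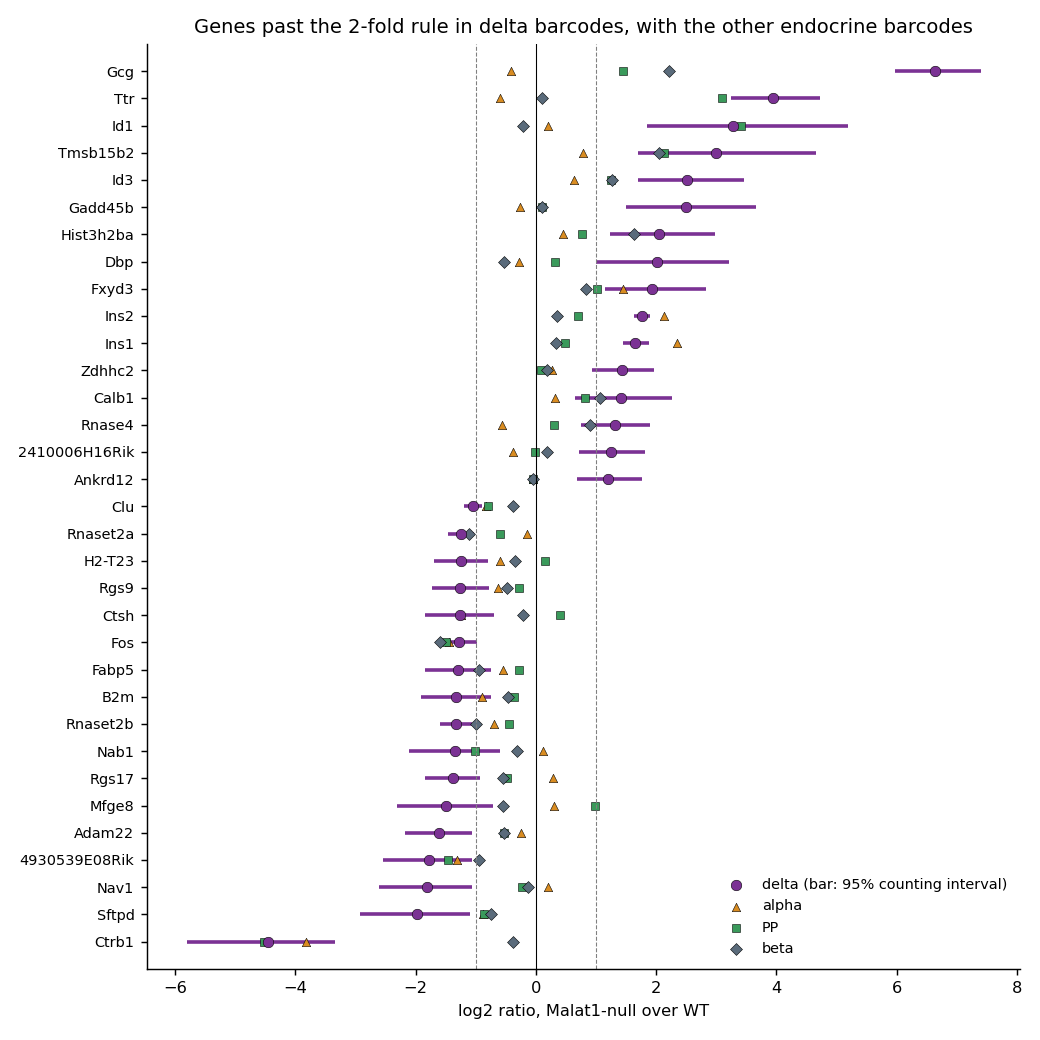
Log2 ratio of Malat1-null over WT for the 33 called genes other than Malat1, in delta barcodes with the 95% counting interval and in alpha, PP and beta barcodes. All 17 lower genes have ratios below 1 in beta barcodes. Gcg and Ttr are among the higher genes that lie on opposite sides of 0 in delta and alpha barcodes.

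The called genes were also read in the other endocrine barcodes. Of all tested genes except Malat1, 60.9% had a ratio above 1 in alpha, 58.6% in PP and 51% in beta barcodes, and 39.1%, 41.4% and 49% a ratio below 1. Of the 16 genes higher in Malat1-null delta barcodes, 9 were also higher in alpha, 14 in PP and 13 in beta barcodes. Of the 17 lower genes other than Malat1, 13 were lower in alpha, 14 in PP and 17 in beta barcodes. In alpha, PP and beta barcodes, 3, 6 and 5 of the higher genes reached 2-fold in the same direction, and 4, 4 and 2 of the lower ones. Of all tested genes except Malat1, 1.1%, 1.18% and 1.02% were at least 2-fold higher there. At least 2-fold lower were 1.27%, 0.635% and 0.762%. The counts of higher genes include genes that the rules for the barcodes used, so they are a description. Ins1 and Ins2 were among the 3 in alpha barcodes, and Gcg was among the 6 in PP and the 5 in beta barcodes. All classes of a library share the same mice, culture and ambient RNA.

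The functional gene lists were read against 0.677% called higher and 0.761% called lower over all genes tested, with an overall median log2 ratio of 0.06. Of all 2364 genes tested, 2041 lay within 1.5-fold. Of the 13 tested endocrine transcription factors none was called, and 11 lay within 1.5-fold, with a median log2 ratio of 0.09. Foxo1, a forkhead factor restrained by insulin signalling, had 54.4 CPM in Malat1-null and 27.3 CPM in WT, a ratio of 1.99 (1.16 to 3.57). All 18 tested genes of granule content and prohormone processing lay within 1.5-fold, with a median of -0.06. Among them Chgb, the granin chromogranin B, had 3077 and 4578 CPM, a ratio of 0.67 (0.64 to 0.71), and Pcsk2, the prohormone convertase that processes glucagon, had 2623 and 2192 CPM. Pcsk1, the other convertase, was too low to test, with 31 UMIs in Malat1-null and 5 in WT. Slc30a8, the zinc transporter of insulin granules, had 27 UMIs in 8 barcodes and 0 UMIs, at least 5.12-fold higher in Malat1-null with 3 UMIs as the floor, while the exact interval of the ratio starts at 3.89.

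Channel and neuronal genes were mostly within 1.5-fold, as were most of all genes tested. All 9 tested channel genes lay within 1.5-fold. Abcc8, the sulfonylurea receptor of the KATP channel, had 271 CPM in Malat1-null and 337 CPM in WT, and Itpr1, the IP3 receptor, 141 and 149 CPM. Itpr1 was low in beta barcodes, at 12.5 and 13.5 CPM. Cacna1h, a T-type calcium channel, fell short of the minimum, with 21 UMIs in Malat1-null and 31 in WT, 18.1 against 47.0 CPM. Of 11 tested neuronal and cell-contact genes 10 lay within 1.5-fold, and Gap43 had the highest ratio, 1.90 (1.35 to 2.71). Of the 4 receptors tested none was called. Ffar4 had a ratio of 1.84 (1.12 to 3.11) and Igf1r, the IGF-1 receptor, 0.58 (0.39 to 0.86). Adra2a, an inhibitory adrenergic receptor, had 26 UMIs in 19 Malat1-null barcodes and 3 UMIs in 3 WT barcodes, too few to test.

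Genes of stress pathways were mostly within 1.5-fold, as were 2041 of all 2364 genes tested. Of the 18 genes of the AhR pathway, 9 had no UMI in either library. These included Cyp1a1, the classical target induced by TCDD, with a UMI in 0 of 42 Malat1-null and 0 of 22 WT barcodes, where the exact intervals of the share of barcodes with a UMI reach 8.41% and 15.4%, and Ahr, Ahrr and Cyp1b1. Tiparp, another AhR target, had 32.8 CPM in Malat1-null and 15.2 CPM in WT. All 25 tested Nrf2 and antioxidant genes lay within 1.5-fold, with a median log2 ratio of 0.04. Mt1, the metallothionein with most UMIs, had 2252 and 1725 CPM, a ratio of 1.31, whereas in beta barcodes its ratio was 0.36. All 7 tested heat-shock genes lay within 1.5-fold. Of 18 tested genes of ER stress and folding 15 lay within 1.5-fold and none was called. Ddit3, which encodes the stress factor CHOP, had 121 and 59.2 CPM, a ratio of 2.04 (1.42 to 2.99) whose interval did not pass. The chaperone Hspa5 had 805 and 701 CPM.

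Of 10 tested immediate-early genes 8 lay within 1.5-fold and 1 was called. Fos, the AP-1 subunit, had 138 CPM in Malat1-null and 334 CPM in WT, a ratio of 0.41 (0.34 to 0.51), with UMIs in 27 of 42 and 9 of 22 barcodes. The single richest barcode held 31.9% of its UMIs in Malat1-null and 35% in WT. The median Fos share of a barcode was 0.00592% in Malat1-null and 0% in WT, opposite in direction to the ratio of the sums. The Fos ratio was 0.37 in alpha, 0.36 in PP and 0.33 in beta barcodes. Its partner Jun had 775 and 774 CPM in delta barcodes, a ratio of 1.00 (0.90 to 1.12), while in alpha and beta barcodes the Jun ratio was 0.47 and 0.45. Egr1 had 514 and 504 CPM, with a ratio of 1.02 (0.89 to 1.17).

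Nuclear genes of metabolism were mostly within 1.5-fold, as were most of all genes tested, and mitochondrially encoded ones leaned higher in Malat1-null. Of 31 tested nuclear genes of oxidative phosphorylation 29 lay within 1.5-fold, with a median log2 ratio of 0.02. Among the 11 tested mitochondrially encoded genes 6 were over 1.5-fold higher in Malat1-null and none was called, with a median of 0.60. The rule limited the mitochondrial share to 20%, so these ratios are a description. mt-Cytb, the cytochrome b gene, had 1779 CPM in Malat1-null and 1074 CPM in WT. In Malat1-null 3 of 42 barcodes had over 5% mitochondrial UMIs, and in WT 0 of 22. Of 12 tested glycolysis and hypoxia genes 9 lay within 1.5-fold and none was called, with a median of 0.11. Gapdh, a glycolytic enzyme, had 649 and 620 CPM, a ratio of 1.05 (0.93 to 1.18), against 0.67 in beta barcodes.

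Malat1 RNA is found in nuclear speckles, which store splicing factors. All 23 tested splicing and speckle genes lay within 1.5-fold, with a median log2 ratio of 0.07. Srsf5, an SR splicing factor, had 400.3 CPM in Malat1-null and 366 CPM in WT. Of 7 tested long non-coding RNAs 4 lay within 1.5-fold, 1 was over 1.5-fold higher and 2 over 1.5-fold lower, with a median of -0.28, and Malat1 was the single one called. Neat1, its neighbour on chromosome 19 and the scaffold of paraspeckles, had 100.1 and 121 CPM, a ratio of 0.82 (0.62 to 1.11). Meg3, an imprinted RNA, had 1294 and 1179 CPM.

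Of the 7 tested genes of MHC class I and interferon 2 were called lower and none higher, with a median log2 ratio of -0.54. B2m, the light chain of class I molecules, had 38.8 CPM in Malat1-null and 97.1 CPM in WT, a ratio of 0.40 (0.27 to 0.59). H2-T23, a non-classical class I gene, had 63.8 and 152 CPM, a ratio of 0.42 (0.31 to 0.57). The classical genes H2-K1 and H2-D1 had ratios of 0.70 (0.61 to 0.81) and 0.85 (0.73 to 0.98). The copies of this family are alike, so reads may be assigned to the wrong member. In the barcodes with Gcg and Ppy under 1% neither B2m nor H2-T23 was called, and the log2 ratio of B2m was -0.38, against -1.32 in all. B2m had ratios of 0.54 in alpha, 0.78 (0.54 to 1.11) in PP and 0.73 in beta barcodes. H2-T23 had ratios of 0.66 in alpha, 1.11 (0.85 to 1.45) in PP and 0.78 in beta barcodes. Of 4 tested p53 and apoptosis genes 3 were over 1.5-fold higher and Gadd45b was called, and Bax, which permeabilises mitochondria, had 144 and 89.5 CPM, a ratio of 1.61 (1.19 to 2.21). Of 8 tested neuropeptide and secreted-factor genes Ttr was called higher, with a list median of -0.12.

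**Figure D5:**
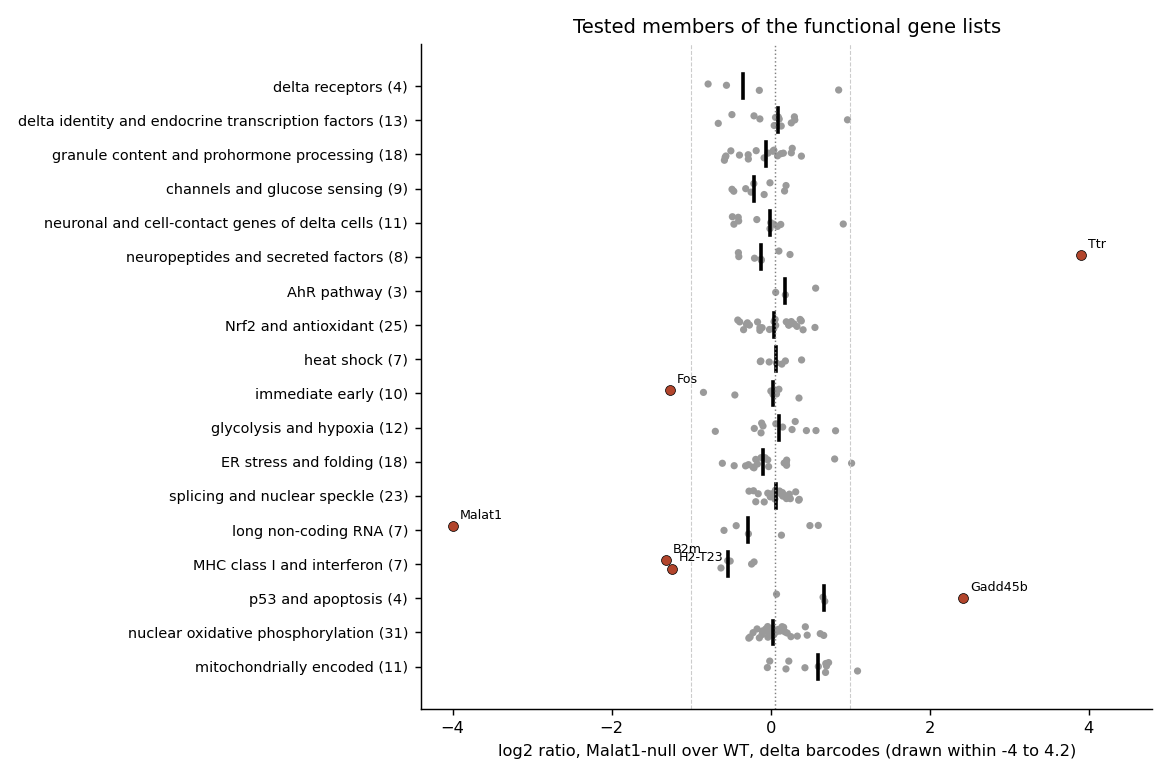
Log2 ratio of Malat1-null over WT in delta barcodes for the tested members of each functional list, with the number tested in brackets; black bars are list medians, the dotted line is the median of all 2364 genes, and larger red points are called genes. Malat1, Fos, B2m and H2-T23 are called lower and Ttr and Gadd45b higher, and Malat1 is drawn at the left edge.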

How the data were processed

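Matrices of the 2 TCDD libraries were used. The authors deposited unnormalised counts, UMIs of 32285 genes in every barcode, with no barcodes filtered out. Per the file headers they come from Cell Ranger 4, while the submitters' processing notes name Cell Ranger 2.1.0 and the build mm10, so the version used is uncertain. Filters and settings beyond that are not given in the sources used here.

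UMIs were summed per gene, class and library, and scaled with TMM factors (edgeR 4.0.16, R 4.3.3) over 8 sums, from which CPM were computed. Levels have exact Poisson, shares exact (Clopper-Pearson) and ratios exact conditional intervals at 95%. Log2 ratios have 0.5 UMIs added. edgeR's quasi-likelihood test was not run, since there is 1 library per group. Beta barcodes held at least 10% insulin and under 1% of each other hormone. Lymphocyte barcodes held at least 5 UMIs of T, NK or B cell markers. For thinned beta values every barcode in 10 was used. Intervals, thinning and classes were computed in Python 3.11.15 with numpy 2.4.6 and scipy 1.17.1. The rule for calling genes and the ratio intervals were tested on simulated sums with counting error only. That simulation left out the spread between barcodes, their selection, the TMM factors and the thinning.

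Named were the 12 highest and 12 lowest called ratios, the 20 leading delta genes, the 10 most variable genes, the selection markers, Malat1 and list members with most UMIs or the largest ratio. The remaining called genes and the genes named beside them as too low to test were chosen after their values were seen. The members, gene lists and rules were chosen with earlier results of these data known. Cells, genes and lists added no replicates.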

Additional observations from a re-analysis of the deposited data

Results flagged for a closer look

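Gcg, Ttr, Rnase4, 2410006H16Rik and Dbp were called higher in Malat1-null delta barcodes. In another endocrine class of the same libraries, the interval of their ratio of Malat1-null over WT lay wholly below 1. For other called genes with a ratio on the opposite side, the interval included 1. The differences were not tested, since each genotype has 1 library. Gcg had a ratio of 99.6 in delta barcodes and 0.752 (0.748 to 0.757) in alpha barcodes, where Gcg is also the gene that selected the barcodes. Ttr had 15.3 in delta and 0.664 (0.651 to 0.677) in alpha barcodes. For both genes most Malat1-null delta UMIs came from 1 barcode. Rnase4 had 2.48 in delta and 0.675 (0.605 to 0.752) in alpha barcodes. The ratio of 2410006H16Rik was 2.39 in delta and 0.770 (0.602 to 0.987) in alpha barcodes. Dbp had 4.04 in delta and 0.694 (0.648 to 0.744) in beta barcodes. Its delta UMIs were in 26 of 42 Malat1-null and 7 of 22 WT barcodes.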

How the results depend on the processing

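Leaving out barcodes with Gcg or Ppy at 1% or more kept 13 Malat1-null and 7 WT barcodes. They gave 7 genes higher and 8 lower of 876 tested, of which 4 and 5 were among the 16 and 18, and delta shares of 0.446% in Malat1-null and 0.334% in WT. There Gadd45b had a log2 ratio of -1.50 and Fabp5 of 0.049, opposite to the values with all barcodes, and the causes were not tested. With the mean of barcode CPM, which weights barcodes equally and has no interval to pass, 43 genes were higher and 77 lower, of which 10 and 16 were among the 16 and 18, and the cause was not tested. Without the minimum on low values 49 were higher and 73 lower. Subtracting the ambient profile took all insulin as ambient by construction, so Ins1 and Ctrb1, with nothing left in either library, were at -0.81, which is no measured ratio, and the 1.74 of Ins2 is a residue. In the other settings 14 to 23 genes were higher and 14 to 22 lower, and the 24 genes named by rank kept their direction apart from Ins1. Genes lost without the barcode richest in each gene were Calb1, Dbp, Gadd45b, Id1 and Tmsb15b2 among the higher and 4930539E08Rik, Mfge8, Nab1 and Sftpd among the lower. Nab1 was lost in 8 and Clu in 6 of 16 settings. Leading delta genes numbered 42 at a minimum of 5000 UMIs per barcode and 47 by mean barcode CPM, each sharing 42 with the 46. The alternatives without Gcg barcodes, without WT barcodes lacking Malat1 and without barcodes over 5% mitochondrial UMIs were chosen after seeing the data. No paired analysis was possible because each genotype has a single library. Depth limits low genes most, since the exact interval of a count of 0 reaches 3.18 CPM in Malat1-null and 5.60 CPM in WT.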
